A study of Mus musculus with 24 samples.

Results

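The 10 genes studied here are genes of natural killer (NK) cells and of cytotoxic granules, measured in mouse whole blood: *Gzma*, *Gzmb*, *Prf1*, *Nkg7*, *Klrd1*, *Klrg1*, *Ncr1*, *Klrb1c*, *Eomes* and *Il2rb*. They were found on the array by the gene names of its non-control probes, and all 10 of 10 were present, among 24325 gene symbols in all. The brightest of a gene's probes stood for it, and 9 of the 10 passed the filter on dim probes, with 13054 genes tested in all. Blood came from the heart of 24 male 129S/J mice and was taken 24 h after X-irradiation or sham treatment. Each mouse had its own 1-colour Agilent array. Mice without Parp1, which senses DNA breaks and builds poly(ADP-ribose) chains there, were exposed to 6 Gy (Parp1-KO 6 Gy, n = 5) or to sham treatment (Parp1-KO 0 Gy, n = 5). Wild-type mice received sham treatment (WT 0 Gy, n = 5), 6 Gy (WT 6 Gy, n = 5) or 8.8 Gy (WT 8.8 Gy, n = 4). Per the labels, 6 Gy in knockout and 8.8 Gy in wild-type mice are the doses that kill 50% within 30 days. The knockout 6 Gy group therefore has 1 wild-type group of equal dose and 1 of equal lethality. All RNA had gone through globin depletion.

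NK cells are innate lymphocytes that kill stressed, infected or transformed cells without a rearranged antigen receptor. Perforin, the product of *Prf1*, opens the target cell membrane, and granzymes, serine proteases such as those of *Gzma* and *Gzmb*, enter the target and start cell death. NK cells read their targets through activating and inhibitory receptors, depend on interleukin-15, which signals through the receptor chain encoded by *Il2rb*, and are specified by transcription factors that include Eomes. Several of these genes are also used by cytotoxic CD8 T cells, so none of them marks NK cells alone in blood except, in the main, *Ncr1* and *Klrb1c*. In bulk blood, fewer cells of a type and less RNA per cell cannot be told apart.

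The sequences just upstream of 3 of the genes are shown because *Gzmb* and *Prf1*, both granule genes, differed in opposite directions after irradiation of knockout mice, and because *Nkg7* was the 1 gene here with a match to the T-box motif bound by Eomes and its relative T-bet. Promoter entries in RefSeq (GRCm38.p6) matched 7 of the 10 genes, with no match for *Klrd1*, *Klrg1* and *Il2rb*. Each window holds the 250 bases before the transcription start, printed on the gene's strand from 5′ to 3′. The motifs searched were TCACACC (T-box), TTCNNNGAA (STAT) and ACCACA (RUNX), each on both strands and none overlapping another in these windows, and capitals mark the matches. The *Gzmb* window lies on the minus strand at chr14:56262335-56262584, the *Prf1* window on the plus strand at chr10:61297586-61297835 and the *Nkg7* window on the plus strand at chr7:43436888-43437137.
Gzmb: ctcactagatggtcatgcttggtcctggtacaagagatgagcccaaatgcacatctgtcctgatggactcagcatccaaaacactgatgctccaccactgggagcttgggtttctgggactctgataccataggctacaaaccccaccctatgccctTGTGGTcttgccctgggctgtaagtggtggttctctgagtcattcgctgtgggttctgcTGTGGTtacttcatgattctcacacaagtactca
Prf1: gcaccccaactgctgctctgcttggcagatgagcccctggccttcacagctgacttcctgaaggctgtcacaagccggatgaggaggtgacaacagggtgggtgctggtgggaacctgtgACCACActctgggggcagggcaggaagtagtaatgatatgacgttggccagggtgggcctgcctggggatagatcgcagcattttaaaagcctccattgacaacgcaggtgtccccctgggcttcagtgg
Nkg7: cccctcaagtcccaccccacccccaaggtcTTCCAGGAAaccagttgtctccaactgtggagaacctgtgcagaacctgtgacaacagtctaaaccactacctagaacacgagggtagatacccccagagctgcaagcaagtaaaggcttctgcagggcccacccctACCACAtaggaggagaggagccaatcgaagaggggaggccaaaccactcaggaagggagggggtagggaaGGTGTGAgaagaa
The RUNX letters occurred 2 times in the *Gzmb* window and 1 time in each of the other windows shown, against 14.0% of all 32851 promoter windows of that length with at least 1 match. The *Nkg7* window also held 1 T-box match, present in 3.33% of all windows, and 1 STAT match, present in 7.02%. The *Gzma* and *Klrb1c* windows held 1 RUNX match each, both *Ncr1* windows held 2, and the *Eomes* window held none of the 3 motifs.

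Between 36.5% and 57.5% of probes were well above background on each array. The arrays were scanned on 4 days. All WT 0 Gy arrays were scanned on 1 day and all irradiated wild-type arrays on another, so within wild type the day differs wherever irradiation does. The Parp1-KO 6 Gy arrays were spread over 3 days (3 arrays with irradiated wild type, 1 with WT 0 Gy and 1 with Parp1-KO 0 Gy), and a fit with day as a block separates day from irradiation only through them. *Parp1*, the deleted gene, was at -1.67 on the array labelled Parp1-KO 6 Gy replicate 1, where it was well above background, and between -5.01 and -3.45 on the other 4 Parp1-KO 6 Gy arrays, where it was not. It was not well above background on any Parp1-KO 0 Gy array, and at least 2.59-fold lower there than in WT 0 Gy. In wild type *Parp1* was well above background on 5 of 5 arrays at 0 Gy, 3 of 5 at 6 Gy and 3 of 4 at 8.8 Gy. The lowest WT 8.8 Gy array was at -3.95, so the *Parp1* signal did not separate the genotypes on every array. The array labelled Parp1-KO 6 Gy replicate 1 was also nearly identical to WT 8.8 Gy replicate 2. Their log2 differences had an SD of 0.167 over 10817 probes, where the 276 possible pairs had a median SD of 0.901. The 10 genes differed between them by a median of 0.0994 log2 units. Next closest were Parp1-KO 0 Gy replicates 4 and 5, which shared a slide, with an SD of 0.262, and the pair after that had 0.432. Where leaving out the array labelled Parp1-KO 6 Gy replicate 1 changed a call, or moved a value or count by over 1.5 times, both values are given. Transcripts of hepatocytes varied widely inside each group, with a mean level of 9 such genes between -1.0 and 8.0 over the arrays. The group means also differed. They were 4.21 in Parp1-KO 6 Gy and 2.07 in Parp1-KO 0 Gy, and in wild type 3.88 at 0 Gy, 2.67 at 6 Gy and 5.27 at 8.8 Gy.

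All levels are log2 signal relative to the 75th percentile of the same array, and differences are tested with limma over all 5 groups with Benjamini-Hochberg adjustment over all 13054 genes, called at an adjusted p under 0.05. After irradiation most of the 9 genes tested were not called, while T and B cell markers fell. In Parp1-KO 6 Gy against Parp1-KO 0 Gy, *Klrg1*, *Klrd1* and *Prf1* fell and *Gzmb* rose, 3 lower and 1 higher of 9, where 10.5% of all genes tested were called lower and 12.3% higher. In WT 6 Gy against WT 0 Gy, 0 of 9 were called in limma and 0 had an unadjusted p under 0.05, where 10.9% of all genes were called lower and 15.5% higher. With arrays centred on their median instead, which moved the median of all genes in that comparison to -0.74, *Prf1*, *Nkg7*, *Klrd1* and *Klrg1* were called lower in WT 6 Gy. In WT 8.8 Gy against WT 0 Gy, *Klrd1* and *Klrg1* fell and none rose, 2 of 9, where 9.02% of all genes were called lower and 7.03% higher. Both wild-type comparisons share the 5 sham arrays.

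**Figure D1:**
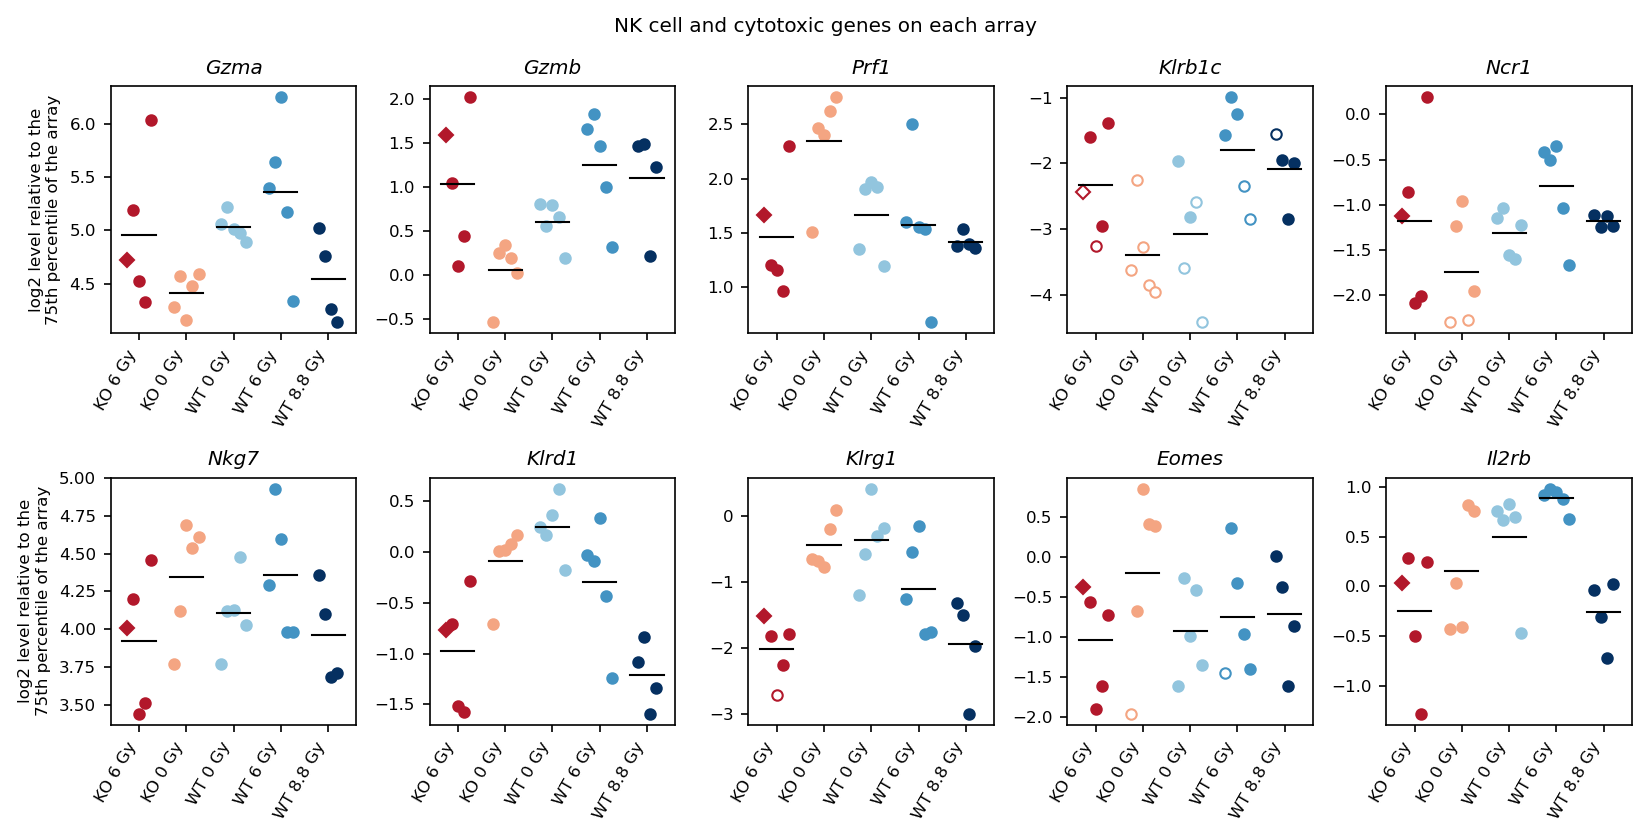
Level of each of the 10 genes on each array (vertical axis, log2 relative to the 75th percentile of the array) in Parp1-KO 6 Gy, Parp1-KO 0 Gy, WT 0 Gy, WT 6 Gy and WT 8.8 Gy blood. Points are arrays, filled where the probe was well above background, the diamond is the array labelled Parp1-KO 6 Gy replicate 1, and lines are group means. The 5 *Klrg1* values of Parp1-KO 6 Gy, -2.71 to -1.52, all lie below the 5 of Parp1-KO 0 Gy, -0.78 to 0.09.

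Among the granule effectors, *Gzmb*, granzyme B, a protease that cleaves after aspartate and activates caspases (mm9 chr14:56877916-56877975, minus strand), was at 1.59, 1.04, 0.10, 0.44 and 2.02 in Parp1-KO 6 Gy, against -0.54, 0.25, 0.34, 0.19 and 0.02 in Parp1-KO 0 Gy. The groups overlapped through the lowest irradiated array, and 5 of 5 irradiated arrays lay above the sham mean. The difference was 0.99 ± 0.34 (SE; limma adjusted p = 0.0404), a 1.98-fold rise. Without the array labelled Parp1-KO 6 Gy replicate 1 it was 0.85 with an adjusted p of 0.0983, so the call ended. In wild-type arrays *Gzmb* averaged 0.60 ± 0.25 at 0 Gy, 1.25 ± 0.60 at 6 Gy and 1.1 ± 0.60 at 8.8 Gy (SD, n = 5, 5 and 4). Neither wild-type difference was called (0.65 ± 0.34, adjusted p = 0.159, and 0.50 ± 0.36, adjusted p = 0.368, in limma).

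*Prf1*, perforin (mm9 chr10:60766941-60767000, plus strand), was at 1.67, 1.21, 1.16, 0.97 and 2.30 in Parp1-KO 6 Gy, against 1.51, 2.47, 2.40, 2.62 and 2.75 in Parp1-KO 0 Gy. The first sham array was the lowest of its group and lay among the irradiated arrays, and the other 4 sham arrays lay above every irradiated one. The gene fell by 0.89 on the log2 scale (SE 0.30, limma adjusted p = 0.0369), 1.85-fold lower. In wild-type arrays it averaged 1.67 ± 0.37 at 0 Gy, 1.58 ± 0.64 at 6 Gy and 1.42 ± 0.08 at 8.8 Gy (SD), and neither irradiated group was called against sham.

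*Gzma*, granzyme A, a protease that cleaves after basic residues (mm9 chr13:113884035-113884094, minus strand), was at 4.72, 5.19, 4.53, 4.33 and 6.04 in Parp1-KO 6 Gy, against 4.28, 4.57, 4.16, 4.48 and 4.59 in Parp1-KO 0 Gy. The knockout difference of 0.54 ± 0.31 (SE) was not called (limma adjusted p = 0.211). Wild-type arrays averaged 5.03 ± 0.12 at 0 Gy, 5.36 ± 0.70 at 6 Gy and 4.54 ± 0.42 at 8.8 Gy (SD), with the sham arrays within 4.89 to 5.22 and the 6 Gy arrays spread over 4.34 to 6.25. *Nkg7*, a membrane protein of cytotoxic granules (mm9 chr7:50693530-50693589, plus strand), averaged 3.92 ± 0.44 in Parp1-KO 6 Gy and 4.35 ± 0.39 in Parp1-KO 0 Gy, and in wild type 4.11 ± 0.26 at 0 Gy, 4.36 ± 0.41 at 6 Gy and 3.96 ± 0.33 at 8.8 Gy (SD). None of its 3 differences from sham was called. A second *Nkg7* probe, detected on all 24 arrays, gave -0.01 in the knockout comparison where the brighter probe gave -0.42, and -0.02 and -0.32 in WT 6 Gy and WT 8.8 Gy.

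Among the receptors, *Klrg1*, an inhibitory lectin-like receptor of cadherins found on mature NK cells and effector CD8 T cells (mm9 chr6:122220629-122220688, minus strand), was at -1.52, -1.81, -2.71, -2.26 and -1.79 in Parp1-KO 6 Gy, against -0.65, -0.68, -0.78, -0.20 and 0.09 in Parp1-KO 0 Gy. The groups did not overlap, although the probe was not well above background on the lowest irradiated array. The fall was 2.97-fold (log2 difference -1.57 ± 0.36 SE, limma adjusted p = 0.00335). In wild type the values were -1.20, -0.58, 0.41, -0.31 and -0.18 at 0 Gy, -1.25, -0.55, -0.15, -1.79 and -1.76 at 6 Gy and -1.31, -1.50, -2.99 and -1.96 at 8.8 Gy. The 6 Gy arrays fell on both sides of the lowest sham array, whereas all 8.8 Gy arrays lay below every sham array. WT 8.8 Gy was 2.97-fold lower than WT 0 Gy (-1.57 ± 0.39, adjusted p = 0.00843), and WT 6 Gy was not called (-0.73 ± 0.36, adjusted p = 0.137).

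*Klrd1*, CD94, the partner chain of the NKG2 receptors (mm9 chr6:129548612-129548671, plus strand), was at -0.77, -0.71, -1.51, -1.57 and -0.29 in Parp1-KO 6 Gy, against -0.71, 0.01, 0.02, 0.08 and 0.17 in Parp1-KO 0 Gy. Again the first sham array lay among the irradiated ones and the other 4 lay above them all. The fall was 1.85-fold (-0.88 ± 0.29 SE, limma adjusted p = 0.0292). Wild-type arrays were at 0.24, 0.17, 0.36, 0.62 and -0.18 at 0 Gy, at -0.03, -0.09, 0.33, -0.43 and -1.24 at 6 Gy and at -1.08, -0.84, -1.59 and -1.34 at 8.8 Gy. All 4 arrays at 8.8 Gy lay below all 5 sham arrays, a 2.74-fold fall (-1.46 ± 0.30, adjusted p = 0.00304), while WT 6 Gy was not called (-0.53 ± 0.29, adjusted p = 0.168). From high to low, the group means of *Klrd1* ran WT 0 Gy, Parp1-KO 0 Gy, WT 6 Gy, Parp1-KO 6 Gy and WT 8.8 Gy. The steps from WT 0 Gy to Parp1-KO 0 Gy, from WT 6 Gy to Parp1-KO 6 Gy and from Parp1-KO 6 Gy to WT 8.8 Gy were not called by limma, and the step from Parp1-KO 0 Gy to WT 6 Gy was not tested.

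*Ncr1*, NKp46, an activating receptor largely restricted to NK cells and related innate lymphoid cells (mm9 chr7:4296176-4296235, plus strand), was at -1.12, -0.86, -2.09, -2.01 and 0.19 in Parp1-KO 6 Gy, against -2.30, -1.23, -0.96, -2.28 and -1.95 in Parp1-KO 0 Gy, where 2 of 5 arrays were not well above background. The groups overlapped over most of their range (0.57 ± 0.36 SE, limma adjusted p = 0.269). Wild-type arrays averaged -1.31 ± 0.25 at 0 Gy, -0.80 ± 0.56 at 6 Gy and -1.18 ± 0.07 at 8.8 Gy (SD), with no call. *Klrb1c*, NK1.1, the classical NK surface marker of several mouse strains (mm9 chr6:128729611-128729670, minus strand), was near background and not tested. It was well above background on 3 of 5 Parp1-KO 6 Gy and 0 of 5 Parp1-KO 0 Gy arrays, and in wild type on 2 of 5 arrays at 0 Gy, 3 of 5 at 6 Gy and 3 of 4 at 8.8 Gy. Its second probe was well above background on 0 arrays.

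*Eomes*, a T-box transcription factor of NK cells and memory CD8 T cells (mm9 chr9:118394425-118394484, plus strand), was at -0.38, -0.57, -1.90, -1.61 and -0.73 in Parp1-KO 6 Gy, against -1.96, -0.68, 0.85, 0.41 and 0.38 in Parp1-KO 0 Gy, the widest sham group of the 9 genes tested (SD 1.14). The difference of -0.84 ± 0.48 (SE) was not called (limma adjusted p = 0.216). Without Parp1-KO 0 Gy replicate 1, the lowest array, it was -1.28 with an adjusted p of 0.0358. In wild type *Eomes* averaged -0.93 ± 0.59 at 0 Gy, -0.76 ± 0.77 at 6 Gy and -0.72 ± 0.70 at 8.8 Gy (SD), without a call. *Il2rb*, the interleukin-2 and interleukin-15 receptor beta chain (mm9 chr15:78311109-78311168, minus strand), was at 0.03, 0.28, -0.50, -1.28 and 0.24 in Parp1-KO 6 Gy, against -0.43, 0.03, -0.41, 0.82 and 0.76 in Parp1-KO 0 Gy (-0.40 ± 0.32, adjusted p = 0.379). In wild type it was at 0.76, 0.67, 0.83, 0.70 and -0.47 at 0 Gy, at 0.92, 0.98, 0.95, 0.88 and 0.68 at 6 Gy and at -0.04, -0.31, -0.72 and 0.02 at 8.8 Gy. The last sham array stood below the other 4, which lay within 0.67 to 0.83, and without it the fall in WT 8.8 Gy was called (-1.0, adjusted p = 0.0446), against -0.76 ± 0.34 and an adjusted p of 0.127 with it.

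The 2 *Klrg1* falls and the *Klrd1* fall in WT 8.8 Gy held when any 1 of the 24 arrays was left out, whereas the other 3 calls, all in Parp1-KO 6 Gy against Parp1-KO 0 Gy, did not. The *Gzmb* call ended without Parp1-KO 6 Gy replicate 1, 2 or 5 or Parp1-KO 0 Gy replicate 1, 4 or 5 (adjusted p up to 0.111). The *Prf1* call ended without Parp1-KO 6 Gy replicate 2, 3 or 4 or Parp1-KO 0 Gy replicate 2, 3, 4 or 5 (up to 0.101). The *Klrd1* call ended without Parp1-KO 6 Gy replicate 3 or 4 or Parp1-KO 0 Gy replicate 2, 4 or 5 (up to 0.0903). With scan day as a fixed block, where 1 Parp1-KO 6 Gy and 2 Parp1-KO 0 Gy arrays share a day, none of the 6 calls remained. *Prf1* was then at 0.31 and *Klrd1* at 0.061 in the knockout comparison, the opposite sign, while *Gzmb* there was at 2.17 (adjusted p = 0.126) and *Klrg1* at -1.12 (adjusted p = 0.551). In WT 8.8 Gy *Klrd1* was at -2.03 (adjusted p = 0.242) and *Klrg1* at -1.81 (adjusted p = 0.670) under that block. The standard errors of these 6 differences were then 0.52 to 0.81, against 0.29 to 0.39 without the block. With scan day as a random block all 6 calls remained. The correlation within days was estimated at 0.0936, and day differs wherever irradiation does within wild type. That fit therefore cannot separate day from irradiation there. With normexp background correction, *Klrg1* in WT 8.8 Gy was -0.18 (adjusted p = 0.505) and *Klrd1* -0.41 (adjusted p = 0.0584). That setting adds an offset of 50 to every signal, which shrinks log2 differences of dim probes. The part of the offset in these values was not tested.

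T and B cell markers fell in the same blood. Of 25 T cell markers tested, 20 fell in Parp1-KO 6 Gy against Parp1-KO 0 Gy, with a median log2 difference of -1.50. Of 20 B cell markers 16 fell, with a median of -2.55. Both counts were the same without the array labelled Parp1-KO 6 Gy replicate 1. In WT 6 Gy against WT 0 Gy, 19 T cell and 15 B cell markers fell (medians -1.27 and -1.94), and in WT 8.8 Gy against WT 0 Gy 19 and 17 fell (medians -1.68 and -2.68). No marker of either list rose in these comparisons. The medians of the 9 NK and cytotoxic genes in the same order of comparisons were -0.42, 0.25 and -0.25, and those of all genes tested -0.07, 0.04 and 0.03. All 9 genes lay above the median T cell marker in both wild-type comparisons, and 8 of 9 did in the knockout comparison, where *Klrg1* lay below it. Above the median B cell marker lay all 9 in each comparison. The medians of all genes tested also lay above both marker medians in each comparison. The share of all genes above the marker medians was not counted, so these counts do not set the 9 genes apart.

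**Figure D2:**
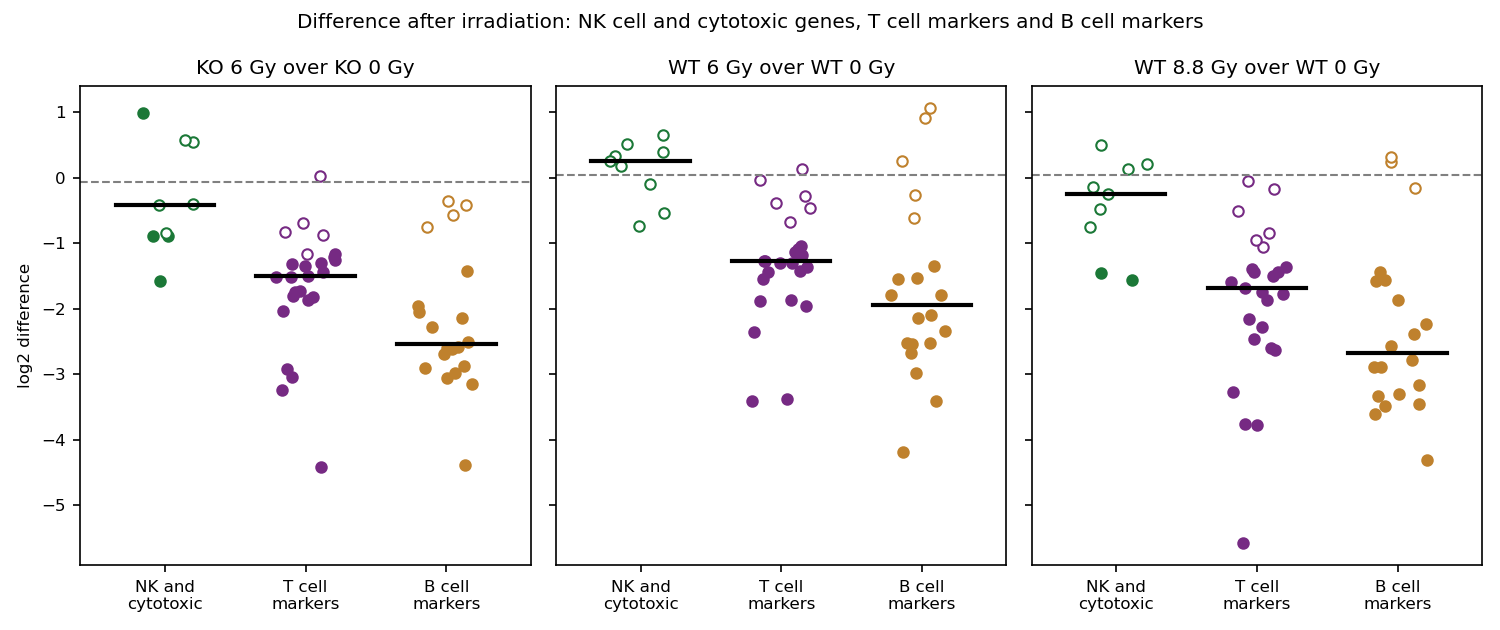
Log2 difference (vertical axis) of the 9 NK and cytotoxic genes tested, 25 T cell markers and 20 B cell markers in Parp1-KO 6 Gy over Parp1-KO 0 Gy, WT 6 Gy over WT 0 Gy and WT 8.8 Gy over WT 0 Gy. Points are genes, filled where called at an adjusted p under 0.05, solid lines are list medians and the dashed line is the median of all genes tested. The NK and cytotoxic medians of -0.42, 0.25 and -0.25 lie above the T cell medians of -1.50, -1.27 and -1.68.

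Single markers gave the size of the T and B cell marker differences beside those of the NK and cytotoxic genes. *Cd3g*, a chain of the T cell receptor complex, averaged 0.30 ± 0.48 in Parp1-KO 6 Gy and 2.11 ± 0.69 in Parp1-KO 0 Gy (SD), 3.49-fold lower, and was 2.69-fold lower in WT 6 Gy and 6.03-fold lower in WT 8.8 Gy than in WT 0 Gy. *Cd3e*, another such chain, and *Lck*, the kinase that starts T cell receptor signalling, were 2.71-fold and 3.64-fold lower in the knockout comparison. *Cd4* was not called in any of the 3 comparisons (-0.69, adjusted p = 0.0764, in the knockout). *Cd8a*, the coreceptor of cytotoxic T cells, which share granule genes with NK cells, averaged -3.13 ± 0.84 in Parp1-KO 6 Gy and -0.20 ± 0.70 in Parp1-KO 0 Gy, 7.60-fold lower, and was well above background on 1 of 5 irradiated knockout arrays. It was 3.89-fold lower in WT 6 Gy, where 4 of 5 arrays were well above background, and 9.62-fold lower in WT 8.8 Gy, where 1 of 4 was, and the part of CD8 T cells in the *Klrg1*, *Klrd1* and *Prf1* falls was not tested. The B cell genes *Cd79a* and *Cd79b*, which encode the signalling chains of the B cell receptor, were 4.15-fold and 7.89-fold lower in Parp1-KO 6 Gy than in Parp1-KO 0 Gy, and *Ms4a1*, CD20, was 7.49-fold lower.

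To set each gene directly against T cell RNA, the mean of the 25 T cell markers of an array was subtracted from every gene of that array and the fit was repeated. The T cell marker mean itself was between 0.19 and 1.30 in Parp1-KO 6 Gy and between 1.83 and 3.01 in Parp1-KO 0 Gy, and in wild type 2.19 to 3.08 at 0 Gy, 0.73 to 1.62 at 6 Gy and 0.09 to 1.36 at 8.8 Gy. Relative to it, 8 of 9 genes were higher in Parp1-KO 6 Gy than in Parp1-KO 0 Gy, 8 in WT 6 Gy and 7 in WT 8.8 Gy than in WT 0 Gy, and none was lower. Without the array labelled Parp1-KO 6 Gy replicate 1, *Eomes* was no longer called in the knockout comparison (0.66, limma adjusted p = 0.113). Of all genes tested, 80.3%, 72.1% and 87.3% were also higher on this scale, so these counts are near the background. The medians of the 9 genes were 1.25, 1.58 and 1.66, and those of all genes 1.60, 1.37 and 1.95.

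The 9 genes differed among themselves on this scale. *Gzmb* had the highest of the 9 differences in each comparison, 6.31-fold in Parp1-KO 6 Gy (2.66 ± 0.30 SE, limma adjusted p = 1.07e-07), 3.94-fold in WT 6 Gy and 5.33-fold in WT 8.8 Gy, with no overlap between irradiated and sham arrays. How many of all genes did not overlap on this scale was not counted. The level of *Gzma* itself, before the subtraction, differed by -0.49 in WT 8.8 Gy against WT 0 Gy and was not called. Relative to the T cell marker mean it was 4.64-fold, 3.15-fold and 2.69-fold higher in the same 3 comparisons, and *Ncr1* 4.71-fold, 3.58-fold and 4.15-fold. The median gene of all tested was itself higher by 1.60, 1.37 and 1.95 log2 units on this scale, and *Gzma* lay below that median in WT 8.8 Gy. *Klrg1* was not called in any of the 3 comparisons. It differed by 0.10 ± 0.31 (adjusted p = 0.761) in Parp1-KO 6 Gy, 0.59 ± 0.31 (adjusted p = 0.0844) in WT 6 Gy and 0.35 ± 0.32 (adjusted p = 0.304) in WT 8.8 Gy. *Klrd1* was called in Parp1-KO 6 Gy (0.79 ± 0.25, adjusted p = 0.00652) and in WT 6 Gy (0.79 ± 0.25, adjusted p = 0.00676) but not in WT 8.8 Gy (0.46 ± 0.26, adjusted p = 0.0997). Whether these relative differences are unlike between genes was not tested.

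**Figure D3:**
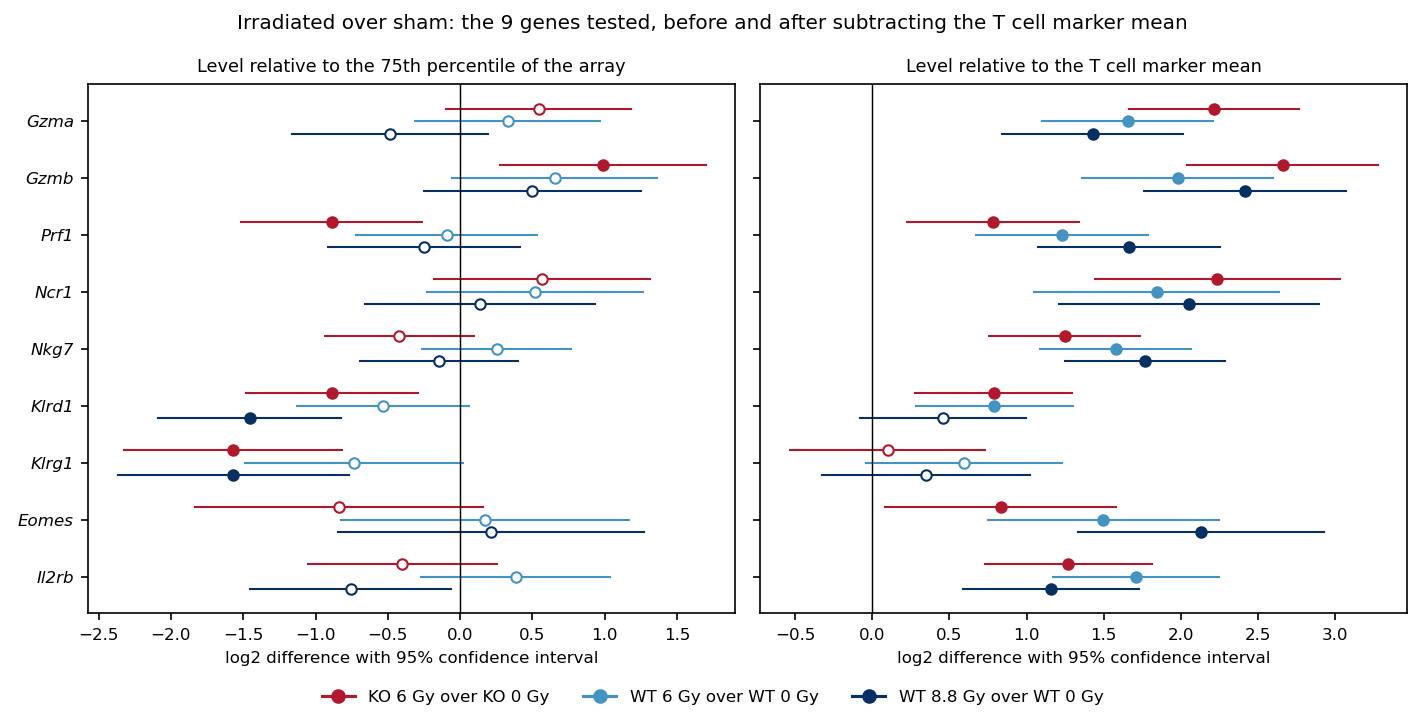
Log2 difference of irradiated over sham blood (horizontal axis, with 95% confidence intervals) for the 9 genes tested, on the level relative to the 75th percentile of the array (left) and relative to the T cell marker mean (right). Colours are the 3 comparisons and filled points were called. On the right all points but *Klrg1* in 3 comparisons and *Klrd1* in WT 8.8 Gy are called, with *Gzmb* at 2.66 in the knockout.

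Against the mean of the 20 B cell markers, 8 of 9 genes were higher in Parp1-KO 6 Gy, 9 in WT 6 Gy and 8 in WT 8.8 Gy, where 91.8%, 86.0% and 95.2% of all genes were. The exception was *Klrg1* in Parp1-KO 6 Gy (0.64 ± 0.40, limma adjusted p = 0.124) and in WT 8.8 Gy (0.76 ± 0.42, adjusted p = 0.0893). *Gzmb* was 9.21-fold, 5.13-fold and 7.08-fold higher against this mean, where the medians of all genes were 2.14, 1.75 and 2.36 log2 units. The relative counts fell with scan day as a fixed block, to 4, 2 and 4 of 9 against the T cell mean and to 8, 6 and 6 against the B cell mean in Parp1-KO 6 Gy, WT 6 Gy and WT 8.8 Gy.

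The genotypes and doses were then compared directly. Between Parp1-KO 0 Gy and WT 0 Gy, 0 of 9 genes were called in limma (1 had an unadjusted p under 0.05), where 0.682% of all genes were, 89 genes, or 53 with the array labelled Parp1-KO 6 Gy replicate 1 left out of the shared fit. *Prf1* was the gene with that p, 0.68 higher in the knockout (adjusted p = 0.212). All 5 *Gzma* values of the knockout, 4.16 to 4.59, lay below all 5 of the wild type, 4.89 to 5.22 (-0.61 ± 0.31 SE, adjusted p = 0.259). How many of all genes separate in this way was not counted. The Parp1-KO 0 Gy and WT 0 Gy arrays shared no scan day and no slide, so genotype and day cannot be told apart between them. Between Parp1-KO 6 Gy and WT 6 Gy, 0 of 9 were called (3 at an unadjusted p under 0.05), where 0.850% of all genes were, 111 genes, or 535 without that array. *Il2rb* came nearest, with all 5 knockout arrays below all 5 wild-type arrays (-1.13 ± 0.32, adjusted p = 0.0665), and it passed without it (-1.20, adjusted p = 0.0495). Within the scan day shared by these groups the *Il2rb* difference was -0.95 (adjusted p = 0.288), and -0.99 (adjusted p = 0.198) without that array too. The other 2 genes with such a p were *Klrg1* (-0.91, adjusted p = 0.135) and *Klrd1* (-0.68, adjusted p = 0.157).

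At doses of equal lethality, Parp1-KO 6 Gy and WT 8.8 Gy, 0 of 9 genes were called, 0 had an unadjusted p under 0.05, and 0% of all genes were called by limma. At an unadjusted p under 0.05 there were 269 of 13054 genes. The highest difference of the 9 was that of *Gzma*, 0.41 with a 95% interval of -0.26 to 1.09. The interval was -0.88 to 0.72 for *Klrg1*, -0.82 to 0.69 for *Gzmb* and -0.62 to 0.71 for *Prf1*, and these p-values do not show that the groups are alike. The near-identical arrays stand on either side of this comparison. Without the one labelled Parp1-KO 6 Gy replicate 1, 0 of 9 were still called in limma, 599 genes had an unadjusted p under 0.05, and the intervals were -0.25 to 1.20 for *Gzma*, -1.05 to 0.65 for *Klrg1*, -0.99 to 0.59 for *Gzmb* and -0.72 to 0.71 for *Prf1*. Between WT 8.8 Gy and WT 6 Gy, 0 of 9 were called (4 at an unadjusted p under 0.05), where 0% of all genes were (2355 at an unadjusted p under 0.05). All 4 *Il2rb* values at 8.8 Gy lay below all 5 at 6 Gy (-1.14 ± 0.34, adjusted p = 0.129), and *Klrd1* (-0.92), *Klrg1* (-0.84) and *Gzma* (-0.81) had the other 3 p-values under 0.05. The difference between the knockout response and the WT 6 Gy response was called for 0 of 9 genes (0 at an unadjusted p under 0.05), where 6.08% of all genes were, and that between the knockout response and the WT 8.8 Gy response for 0 of 9 (1 at an unadjusted p under 0.05, *Gzma*), where 0% were (1356 at an unadjusted p under 0.05). The calls of *Gzmb* and *Prf1* in the knockout and not in wild type therefore were not shown to differ between genotypes: their interactions with WT 6 Gy were 0.33 ± 0.48 (adjusted p = 0.689) and -0.79 ± 0.43 (adjusted p = 0.247).

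Variation between mice of a group was shared among the 9 genes. Over the 24 arrays, after subtracting group means, the Pearson correlation between pairs of the 9 was 0.24 to 0.87 with a median of 0.64 over 36 pairs, highest for *Nkg7* with *Eomes*. Without subtracting group means it was -0.11 to 0.84 with a median of 0.46, highest for *Klrd1* with *Klrg1* and lowest for *Gzmb* with *Klrg1*. The same deviations correlated with the T cell and hepatocyte marker means: the T cell marker mean correlated with the 9 genes at 0.34 (*Ncr1*) to 0.74 (*Nkg7*), and the hepatocyte marker mean at -0.76 (*Nkg7*) to -0.46 (*Klrg1*) and at -0.88 with the T cell marker mean. These are descriptions over arrays that share 1 scaling, and the part of hepatocyte RNA in the differences was not tested. With the hepatocyte marker mean as a covariate 5 of 9 genes were called in the knockout comparison, *Gzma* among them (0.74, adjusted p = 0.0308).

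**Figure D4:**
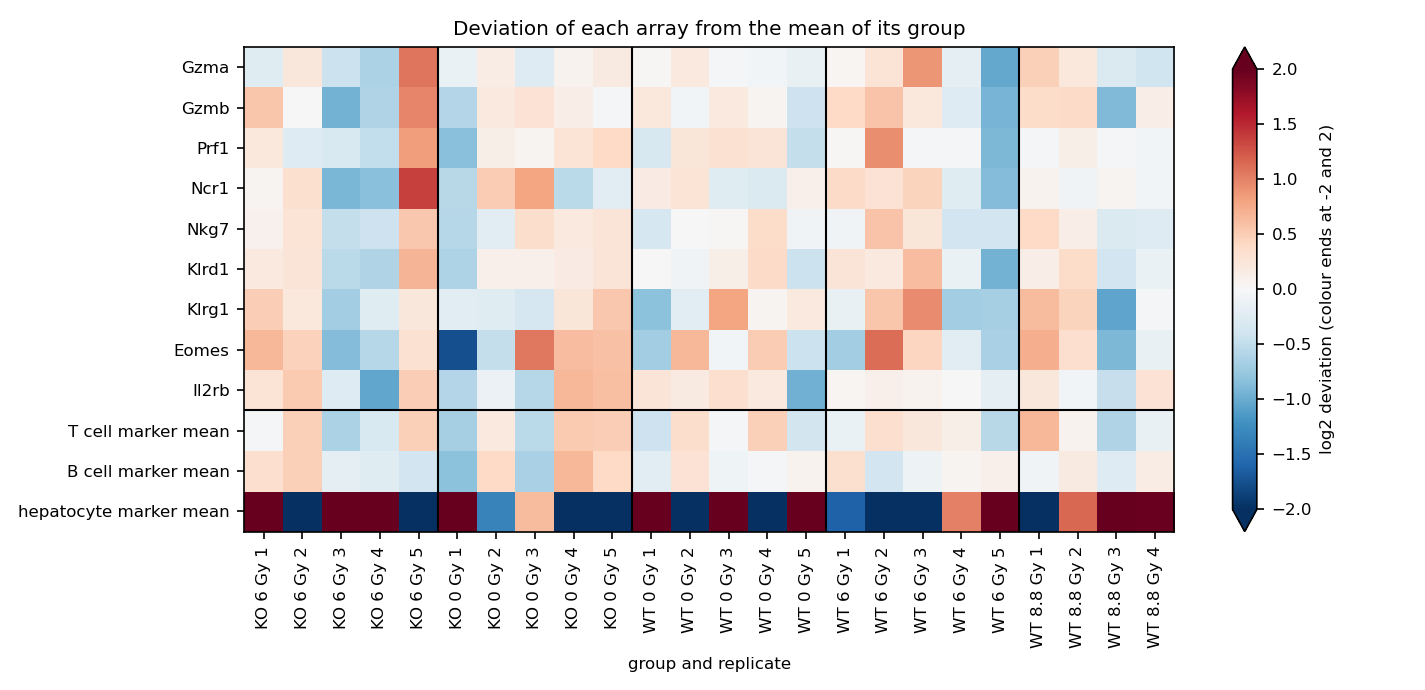
Deviation of each array from the mean of its group (colour, log2 units) for the 9 genes tested and for the T cell, B cell and hepatocyte marker means, with arrays in columns by group. Parp1-KO 6 Gy replicate 5 is above its group mean for all 9 genes (*Gzma* 6.04 against 4.33 to 5.19 on the other 4).

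By mean Pearson correlation with the 9 genes over the 24 arrays, the closest of 12975 were *Btbd11* (0.62), *Snrnp70* (0.62), *Chaf1b* (0.61), *Pced1b* (0.61), *Cd27* (0.61), *Tdp1* (0.60), *Rusc1* (0.60) and *Wscd2* (0.60). On deviations from group means they were *Scnm1* (0.75), *Ighv14-2* (0.74), *Adamts14* (0.74), *9430015G10Rik* (0.74), *Pdgfb* (0.74), *Pde6g* (0.74), *Pnck* (0.73) and *Cd27* (0.73). *Cd27*, a costimulatory receptor of T, B and NK cells, was the 1 gene on both lists.

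Beyond the 10 genes, 129 other genes of NK cell function were listed and 101 were tested. In Parp1-KO 6 Gy against Parp1-KO 0 Gy 18 rose and 13 fell, in WT 6 Gy against WT 0 Gy 13 rose and 12 fell, and in WT 8.8 Gy against WT 0 Gy 13 rose and 19 fell, with medians of 0.07, 0.12 and -0.16. In the same order 17.8%, 12.9% and 12.9% rose, against 12.3%, 15.5% and 7.03% of all genes, and 12.9%, 11.9% and 18.8% fell, against 10.5%, 10.9% and 9.02%, so in the knockout and WT 6 Gy comparisons the shares lay near those of all genes. Of 12 neutrophil markers, measured beside them because several of these genes are also used by myeloid cells, 1, 3 and 4 rose and 2, 0 and 0 fell in the same order, with medians of 0.30, 0.42 and 0.52. Of 9 monocyte markers 3, 0 and 1 rose and 1, 0 and 1 fell (medians 0.29, 0.33 and 0.27). Platelet markers, 10 in all, gave 3, 0 and 5 rises and no fall (medians 1.05, 0.52 and 1.25). Of 7 markers of Kupffer cells, the macrophages of the liver, 4, 3 and 0 rose and none fell (medians 2.97, 1.83 and 1.38), and 2 rose in the knockout comparison without the array labelled Parp1-KO 6 Gy replicate 1. The part of these cells in the rises below was not tested.

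Of the 31 calls in Parp1-KO 6 Gy, 25 in WT 6 Gy and 32 in WT 8.8 Gy, 20, 14 and 17 held when any 1 of the 24 arrays was left out. Among the calls named below, those that ended in the knockout comparison were *Cd96*, *Stxbp2*, *Il15ra*, *Gata3*, *Cxcr3*, *Cxcr6* and *Cx3cr1* (adjusted p up to 0.147, *Cxcr3* without Parp1-KO 6 Gy replicate 4). In WT 6 Gy they were *Fcgr3*, *Cd226*, *Srgn*, *Gzmc* and *Zeb2* (up to 0.109, *Cd226* without WT 0 Gy replicate 1). In WT 8.8 Gy they were *Fcgr3*, *Klra9*, *Lamp1*, *Gnptab*, *Stxbp2*, *Rgs1* and *Cdh1* (up to 0.120, *Klra9* without WT 8.8 Gy replicate 1).

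Of 13 NK receptor genes tested, 5 (38.5%, against 12.3% of all genes) rose and 1 (7.69%, against 10.5%) fell in the knockout comparison. *Fcgr3*, the low-affinity IgG receptor of NK and myeloid cells, rose 2.96-fold (limma adjusted p = 0.00238), *Lilrb4a*, an inhibitory receptor of myeloid cells, 2.05-fold (adjusted p = 0.00418), *Cd226*, an activating receptor, 2.70-fold (adjusted p = 0.00669) and *Klra9*, a Ly49 receptor, 2.08-fold (adjusted p = 0.00691). *Klrb1a* was also called higher (adjusted p = 0.00354), but its probe was well above background on 3 of 5 Parp1-KO 6 Gy and 0 of 5 Parp1-KO 0 Gy arrays and no fold is given. *Cd96*, a receptor of NK and T cells, fell 2.83-fold (adjusted p = 0.0374), and 4.49-fold without Parp1-KO 0 Gy replicate 3. Without the array labelled Parp1-KO 6 Gy replicate 1 its adjusted p was 0.0625, which left 0 falls in the list. It was well above background on 2 of 5 Parp1-KO 6 Gy and 4 of 5 Parp1-KO 0 Gy arrays. In both wild-type comparisons 3 rose and 1 fell, again with *Fcgr3*, *Klra9* and *Cd226* higher and *Cd96* lower (3.78-fold in WT 6 Gy and 4.85-fold in WT 8.8 Gy). The 23.1% that rose stood against 15.5% of all genes in WT 6 Gy and 7.03% in WT 8.8 Gy. The 7.69% that fell stood against 10.9% and 9.02%. *Klra9* in WT 8.8 Gy had an adjusted p of 0.0530 with the array labelled Parp1-KO 6 Gy replicate 1 left out of the shared fit. *Klrk1*, NKG2D, was well above background on 1 of the 24 arrays and was not tested. Ly49 and NKR-P1 genes have near-identical copies, so the signal of a single one is uncertain.

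The receptor adaptors held both rises and falls. *Fcer1g* rose 1.91-fold in Parp1-KO 6 Gy, 2.08-fold in WT 6 Gy and 1.85-fold in WT 8.8 Gy, and *Tyrobp*, DAP12, rose 2.05-fold in Parp1-KO 6 Gy and 2.0-fold in WT 6 Gy, both adaptors of NK and myeloid receptors. *Zap70* and *Sh2d1a*, signalling proteins of T and NK cells, fell 2.15-fold and 3.25-fold in Parp1-KO 6 Gy, 2.13-fold and 2.52-fold in WT 6 Gy and 2.87-fold and 5.21-fold in WT 8.8 Gy. In all, 3 of 13 adaptor genes rose and 2 fell in the knockout, 2 rose and 2 fell in WT 6 Gy, and 1 rose and 4 fell in WT 8.8 Gy. In that order of comparisons 23.1%, 15.4% and 7.69% rose, against 12.3%, 15.5% and 7.03% of all genes, and 15.4%, 15.4% and 30.8% fell, against 10.5%, 10.9% and 9.02%.

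In the granule lists, 2 of 10 effector and processing genes rose in Parp1-KO 6 Gy, *Lamp1*, a lysosome membrane protein (1.95-fold), and *Srgn*, the proteoglycan that packs granzymes (2.26-fold). *Srgn* rose also in WT 6 Gy (1.80-fold) and WT 8.8 Gy (2.05-fold), and *Gzmc* in WT 6 Gy (2.67-fold, with 2 of 5 WT 0 Gy arrays well above background). In WT 8.8 Gy *Lamp1* rose as well (1.50-fold), and *Gnptab*, of the same list, fell 1.84-fold (limma adjusted p = 0.0189). *Gnptab* was well above background on 2 of 4 WT 8.8 Gy arrays. In each comparison 20% of this list rose, against 12.3%, 15.5% and 7.03% of all genes in Parp1-KO 6 Gy, WT 6 Gy and WT 8.8 Gy. In the same order 0, 0 and 1 of its genes fell. *Ctsw*, a protease of NK and CD8 T cells, was not called in any comparison with sham (-0.92, adjusted p = 0.0679 in Parp1-KO 6 Gy and -1.0, adjusted p = 0.0737 in WT 8.8 Gy). Of 10 genes of granule release, 3 (30.0%) rose and 0 fell in each of the 3 comparisons, against 12.3%, 15.5% and 7.03% of all genes that rose in Parp1-KO 6 Gy, WT 6 Gy and WT 8.8 Gy. *Stxbp2*, a syntaxin-binding protein needed for granule fusion, was among them each time (1.44-fold, 1.53-fold and 1.50-fold in Parp1-KO 6 Gy, WT 6 Gy and WT 8.8 Gy).

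The cytokine list gave 2 rises (11.8%, against 12.3% of all genes) and 3 falls (17.6%, against 10.5%) of 17 in Parp1-KO 6 Gy, and 1 fall without the array labelled Parp1-KO 6 Gy replicate 1. *Il15*, the cytokine that sustains NK cells, was 3.97-fold higher (limma adjusted p = 0.00361, with 3 of 5 Parp1-KO 0 Gy arrays well above background) and *Il15ra* 2.33-fold lower (adjusted p = 0.0358; 0.0523 without that array). In WT 8.8 Gy *Il2rg*, the chain shared with *Il2rb*, fell 5.48-fold (adjusted p = 0.0110), and 2.59-fold (adjusted p = 0.0244) without WT 8.8 Gy replicate 4, the lowest array at -3.79 where the group's median was 0.44. Among 14 transcription factors *Zeb2*, which acts in late NK maturation and in myeloid cells, rose in all 3 comparisons (2.59-fold, 1.69-fold and 2.29-fold), and *Gata3*, which acts in T cells and some NK cells, fell in all 3 (2.27-fold, 3.01-fold and 3.25-fold). *Tbx21*, T-bet, was not called (-0.06, adjusted p = 0.918 in Parp1-KO 6 Gy; -0.16, adjusted p = 0.753 in WT 6 Gy; -0.74, adjusted p = 0.152 in WT 8.8 Gy).

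Among 6 secreted and surface effectors, *Ccl3*, a chemokine of NK cells, T cells and macrophages, fell 5.14-fold in Parp1-KO 6 Gy, at least 2.42-fold in WT 6 Gy and 8.53-fold in WT 8.8 Gy (limma adjusted p = 0.000813, 0.000494 and 0.000230), with no overlap with sham arrays. Its probe was well above background on 1 of 5, 0 of 5 and 1 of 4 of these irradiated arrays, and on 3 of 5 Parp1-KO 0 Gy and 5 of 5 WT 0 Gy arrays. *Ccl5*, *Ifng* and *Fasl* were not called in any of the 3 comparisons. Of 11 trafficking genes, *Rgs1*, a regulator of chemokine receptor signalling, rose in all 3 (at least 1.42-fold, 3.22-fold and 2.20-fold, with 0 of 5 Parp1-KO 0 Gy and 4 of 5 WT 0 Gy arrays well above background), while *Cx3cr1*, *Cxcr6* and *Cxcr3*, chemokine receptors of NK cells, T cells and monocytes, fell in Parp1-KO 6 Gy (2.96-fold, 2.03-fold and 1.76-fold) and in WT 8.8 Gy (3.58-fold, 4.17-fold and 2.35-fold). Of 7 ligands of NK receptors, *Cdh1*, E-cadherin, the ligand of Klrg1, was called lower in all 3 comparisons. In the knockout comparison no array of either group was well above background and no fold is given. The fall was at least 1.16-fold in WT 6 Gy (0 of 5 arrays above background) and 2.32-fold in WT 8.8 Gy (1 of 4), with 4 of 5 WT 0 Gy arrays above background.

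**Figure D5:**
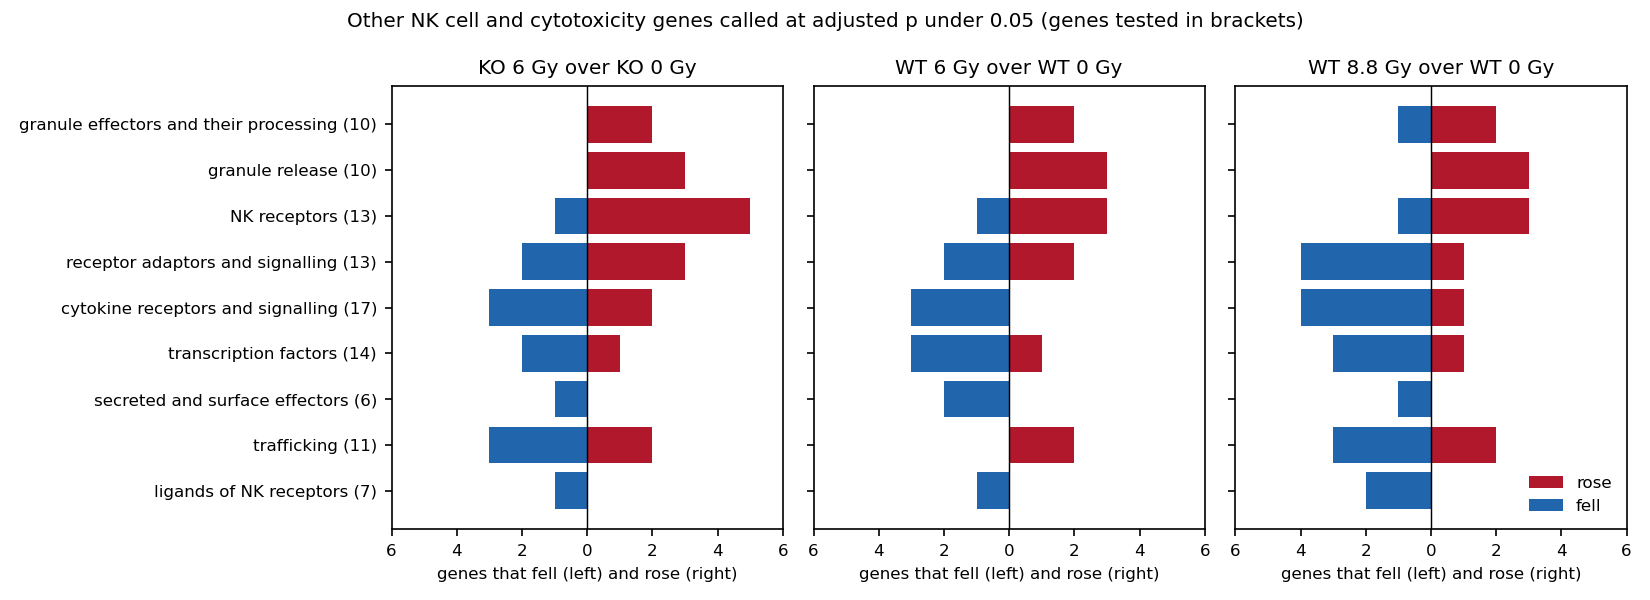
Number of other NK cell and cytotoxicity genes that fell (left of 0) and rose (right of 0) at an adjusted p under 0.05, by list, in Parp1-KO 6 Gy over Parp1-KO 0 Gy, WT 6 Gy over WT 0 Gy and WT 8.8 Gy over WT 0 Gy, with the number of genes tested in brackets. Granule release has 3 rises and 0 falls in each comparison, and the secreted effectors have falls and 0 rises.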

How the data were processed

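RNA of 24 whole-blood samples was hybridised to 1-colour Agilent arrays (10 slides, 4 scan days). The deposited scanner files hold spot intensity on a linear scale. Per the file headers and the submitters' processing notes they come from Agilent Feature Extraction 11.5.1, and the processed signal is background-subtracted and detrended within the array, with no scaling between arrays. The authors' deposited series table holds log2 values, which differ from the scanner's log2 signal by a single constant on each array (column medians 7.626 to 8.09). The choice of the constants and of its 10214 rows has no source here. It served as an alternative.

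Control spots and 4464 outlier spots were dropped and saturated spots kept, the 75th percentile of the log2 processed signal was subtracted per array, and spots of a probe were averaged. The brightest probe stood for a gene, and a gene was tested if at least 4 arrays of a group detected it above background. Names came from the array file and, through accessions, from RefSeq (GRCm38.p6); probe positions are mm9. Differences were fitted with limma 3.58.1 in R 4.3.3 (lmFit, eBayes) on 5 group means, with Benjamini-Hochberg adjustment over 13054 genes, two-sided; SE is the moderated standard error. Tables were made with Python 3.11.15. The fit was tested on simulated data with known changes put into WT 6 Gy. Of genes changed by 1 log2 unit 27 of 100 were called, and of those changed by 2 units 85 of 100. Only these genes of 12984 were changed, where 3446 were called in the real WT 6 Gy comparison with sham. The noise was drawn separately for each gene, without a day effect. These shares therefore do not give the power of the real fit. A gene that was not called is not shown to be unchanged. The number of arrays limits the precision.

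Groups came from the labels. The 10 genes and the gene lists were chosen with earlier results of these data known. All 10 genes are described, as are fixed T cell and B cell examples, of which 1 is not reported here; of each other list the called genes with the smallest adjusted p, up to 3 in each direction per comparison, could be named, with *Tbx21*, *Klrk1*, *Ccl5*, *Ifng*, *Fasl* and *Ctsw* always. A group with no array well above background has a bound only: the brighter group's mean over the mean, per array, of the higher of the lowest detected signal and the probe's own. Replicate numbers mark separate mice: samples with the same number did not deviate together (median correlation -0.045 over 46 pairs). Alternatives were other background corrections, scalings, filters, blocks, left-out arrays and the authors' table.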

Additional observations from a re-analysis of the deposited data

Results flagged for a closer look

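Over the 10 genes and the T and B cell marker means, each in 5 groups (60 sets of arrays), 3 arrays stood apart from the rest of their group by more than Dixon's 95% critical value; chance alone gives about 1 in 20 sets. *Prf1* was 1.51 on Parp1-KO 0 Gy replicate 1, where the other 4 lay between 2.40 and 2.75. *Klrd1* was -0.71 on the same array, where the other 4 lay between 0.01 and 0.17. Without that array, *Prf1* in Parp1-KO 6 Gy against Parp1-KO 0 Gy was -1.1 (limma adjusted p = 0.0104) and *Klrd1* -1.04 (adjusted p = 0.0131). The hepatocyte marker mean of that array, 7.40, was the highest of its group, and its part was not tested. *Il2rb* was -0.47 on WT 0 Gy replicate 5, where the other 4 lay between 0.67 and 0.83, and without it the WT 8.8 Gy difference was called (-1.0, adjusted p = 0.0446).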

How the results depend on the processing

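Of 621 counts of called genes recomputed under the alternatives, 572 stayed within 1.5 times the count given and 49 did not. Among 5544 differences of single genes, 5356 kept their side of the threshold, 52 gained a call and 128 lost one. The other 8 changed sign and were called with or without the alternative. Sign changes of differences not called in either setting were not counted apart. The causes were not tested, except that fewer genes or arrays enter some settings. Leaving out 1 array at a time gave 1 to 4 calls of 9 in Parp1-KO 6 Gy against Parp1-KO 0 Gy, 0 in WT 6 Gy and 2 to 3 in WT 8.8 Gy against WT 0 Gy, 0 to 1 in Parp1-KO 6 Gy against WT 6 Gy and 0 in the other 5 comparisons without a marker mean. It gave 7 to 8, 8 to 9 and 7 to 8 against the T cell mean and 8, 8 to 9 and 7 to 9 against the B cell mean (Parp1-KO 6 Gy, WT 6 Gy, WT 8.8 Gy).

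In Parp1-KO 6 Gy against Parp1-KO 0 Gy, where 4 were called, the count was 1 with no filter on dim probes, 1 with only the groups compared, 2 with slide as a random block, 2 without both arrays of the near-identical pair, 8 with array weights, and 0 with scan day or slide as a fixed block, where *Prf1* was 0.31 in both and *Klrd1* 0.061 in both. With the replicate block 1 call was left, *Klrg1*, with adjusted p = 0.0577 for *Gzmb*, 0.0570 for *Prf1* and 0.0515 for *Klrd1*; the block moved no other count by over 1.5 times, and replicate numbers do not pair these mice. In WT 8.8 Gy, where 2 were called, the count was 1 with normexp, 1 of 6 with genes detected on all arrays, 4 with array weights and 0 with scan day or slide as a fixed block. In WT 6 Gy, where 0 were called, it was 4 with median centring (*Nkg7* -0.53, the opposite sign) and 1 each with quantile normalization, no filter, the hepatocyte covariate and array weights.

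Where 0 were called, Parp1-KO 6 Gy against WT 6 Gy gave 1 with the 75th percentile over probes detected on all arrays, quantile normalization, the hepatocyte covariate, array weights or the authors' table. Parp1-KO 0 Gy against WT 0 Gy gave 2 with array weights, Parp1-KO 6 Gy against WT 8.8 Gy 2 with normexp, and WT 8.8 Gy against WT 6 Gy 2 with normexp and 2 with array weights. The difference of responses gave 1 with median centring and 2 with array weights against WT 6 Gy, and 2 with normexp and 1 with array weights against WT 8.8 Gy.

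Against the T cell mean, scan day as a fixed block gave 4, 2 and 4 calls and slide as a fixed block 3, 0 and 0 in Parp1-KO 6 Gy, WT 6 Gy and WT 8.8 Gy, with *Il2rb* at -0.52 in WT 8.8 Gy under the slide block, and normexp gave 5 in Parp1-KO 6 Gy. Against the B cell mean, slide as a fixed block gave 0 in WT 6 Gy and 4 in WT 8.8 Gy. There, normexp gave 5, with *Gzma* at -0.47 and *Nkg7* at -0.058, and genes detected on all arrays gave 5 of 6.

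*Klrb1c* lay near background, which limits what can be said of it. The fits within a shared day without the array labelled Parp1-KO 6 Gy replicate 1, the list counts and single markers without it, and the other NK genes without each array in turn, were chosen after seeing the data.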
